A study of Mus musculus with 8 samples.

Results

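The expression of 10 of the 22180 named genes on the arrays was followed in mouse dorsal skin: the S100 fused-type genes Flg2, Hrnr, Rptn and Crnn, the cornified envelope precursors Lor and Ivl, the proteases Casp14 and Asprv1, the corneodesmosome gene Cdsn and the transglutaminase gene Tgm3. They were taken by name, as the probe sets whose platform annotation gives that symbol alone, and each of the 10 had exactly 1 such probe set. Each of 8 labels had 1 Affymetrix array, and all mice were male. The arrays with imiquimod cream (IMQ, a Toll-like receptor agonist that induces psoriasis-like inflammation) were WT_IMQ, KO_IMQ, KO_IMQ_B and KO_IMQ_Allo. Those whose labels name no IMQ were WT_CTRL, KO_CTRL, KO_CTRL-B and KO_Allo. WT mice were C57BL/6, and KO mice carried the allele of the strain B6.Cg-Il22ra1tm1.1Koll/J, a targeted Il22ra1, the gene of the IL-22 receptor alpha chain. Per the labels, 83.3 mg of a 5% IMQ cream went on the back and ears each day from day 1 to day 7, and treatment mice received a vehicle or alloferon cream 6 hours later. Allo stands for alloferon, a peptide first described in insects. The meaning of B, the mice's age, whether the allele is conditional, what the CTRL mice received and whether the stated 4 mice per group were pooled on an array are not given in the sources used here.

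By their labels, 4 pairs of arrays (WT, KO, KO B and KO Allo) differ in IMQ alone. Nothing says how the arrays relate to animals, so the p-values refer to array-to-array spread that may be technical in part. The 4 pairs are not replicates of the same condition, since they differ among themselves in genotype, alloferon or the letter B. In a fit of a common IMQ effect over the pairs, this spread also holds any differences between pairs in the response to IMQ. Array medians over all probe sets lay between 5.68 and 5.73 log2 units. Il22ra1 read 8.59 to 9.40 on the 6 KO arrays, against 8.64 on WT_IMQ and 8.23 on WT_CTRL, so its probe set does not check the genotype. The suprabasal keratin genes Krt1 and Krt10 read at least 11.35 and 12.41 on every array. Krt2 read 4.37 to 5.33, below the array medians.

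The cornified envelope is a shell of crosslinked protein that replaces the plasma membrane of keratinocytes as they die at the skin surface. Involucrin (Ivl) forms an early scaffold and loricrin (Lor) supplies much of the later mass, and transglutaminases join them by covalent bonds. S100 fused-type proteins, of which filaggrin is the best known, carry an S100-like calcium-binding start and long repeats, and collect in granular cells. Filaggrin is cut from a precursor and then broken down to amino acids, steps in which the mouse proteases encoded by Asprv1 and Casp14 take part. Corneodesmosin (Cdsn) holds the dead cells together.

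Of the 10 genes, 6 lie in the epidermal differentiation complex on chromosome 3. The 130 bases before their RefSeq start sites (GRCm38.p6) are shown because 5 of them match the same short pattern. Capitals mark TGANTCA, searched as a loose form of the AP-1 site with any middle base, and TATAAA, the TATA box. The usual AP-1 site has C or G in the middle, as in Lor (TGAGTCA) and Ivl (TGACTCA). Rptn (TGATTCA), Crnn and Flg2 (both TGAATCA) have T or A there. The sequences run 5′ to 3′ on the gene's strand.

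Rptn, chr3:93393569-93393698, plus strand: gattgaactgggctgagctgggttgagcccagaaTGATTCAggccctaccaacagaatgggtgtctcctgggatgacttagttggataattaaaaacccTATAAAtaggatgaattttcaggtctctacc
Crnn, chr3:93144659-93144788, plus strand: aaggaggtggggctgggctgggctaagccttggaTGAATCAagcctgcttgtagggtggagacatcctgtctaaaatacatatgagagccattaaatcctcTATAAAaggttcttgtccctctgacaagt
Flg2, chr3:93197143-93197272, plus strand: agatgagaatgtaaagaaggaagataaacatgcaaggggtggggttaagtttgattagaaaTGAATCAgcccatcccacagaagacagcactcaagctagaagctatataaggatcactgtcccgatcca
Hrnr, chr3:93319619-93319748, plus strand: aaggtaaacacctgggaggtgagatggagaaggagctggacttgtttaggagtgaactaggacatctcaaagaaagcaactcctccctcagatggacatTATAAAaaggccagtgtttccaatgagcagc
Lor, chr3:92083143-92083272, minus strand: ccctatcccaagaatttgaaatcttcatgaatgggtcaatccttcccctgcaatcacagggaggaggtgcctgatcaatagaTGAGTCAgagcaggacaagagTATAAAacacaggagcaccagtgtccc
Ivl, chr3:92573736-92573865, minus strand: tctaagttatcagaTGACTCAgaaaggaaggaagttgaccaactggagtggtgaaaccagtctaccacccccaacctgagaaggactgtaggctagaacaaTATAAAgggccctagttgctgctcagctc

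TGANTCA was searched on both strands, where it matches itself, in the 250 bases before the start. It stood in the promoters of Rptn, Crnn, Flg2, Lor and Ivl, 5 of 10 genes, and in 6.75% of 32851 RefSeq promoters of the same length. Counting the start as 0, it began at position -96 in both Rptn and Crnn. Among 47 other measured genes of the complex with a promoter in the table, 14 held it, of which 6 rose with IMQ, 1 fell and 7 were not called. Rptn and Crnn, which match this loose pattern at the same place, moved in opposite directions with IMQ. TATAAA stood in 6 promoters, those of Hrnr, Rptn, Crnn, Lor, Ivl and Tgm3, and in 12.4% of all. Of the 47 other genes of the complex, 19 (40.4%) held it. AACCNGTT, the Grainyhead-like motif, was found on the opposite strand in Rptn alone among the 10, at position -197 and so outside the stretch shown (1.79% of all). TTCNNNGAA, the STAT motif, was found in Cdsn alone among the 10 (7.02% of all), in 1 of its 2 promoters. Casp14 and Asprv1 held none of the 4 motifs in this window. The matches are letters in a window and were not tested as binding sites.

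The first question was what IMQ changed. Rptn, Casp14, Asprv1 and Cdsn rose and Crnn fell, while Flg2, Hrnr, Lor, Ivl and Tgm3 did not pass the test. The test was limma over all 22180 genes with a level per pair and 1 IMQ effect, and a gene was called at a Benjamini-Hochberg adjusted p under 0.05. By this rule 3.09% of all genes were called, 1.9% as higher with IMQ and 1.19% as lower, against 4 higher and 1 lower of the 10. The median IMQ difference of the 10 was 0.66 log2 units, and that of all genes was -0.008. At an unadjusted p under 0.05 stood 9 of the 10, all but Lor, and 18.8% of all genes. These calls rest on few pairs. Of the 10 genes, 0 were called without the WT pair or the KO B pair, 1 (Crnn) without the KO pair and 7 without the KO Allo pair, which added Flg2 and Tgm3. Over all genes the calls moved as well. They numbered 0 without the WT pair, 2 without KO B, 260 without KO and 1307 without KO Allo, against 685 with all pairs.

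**Figure D1:**
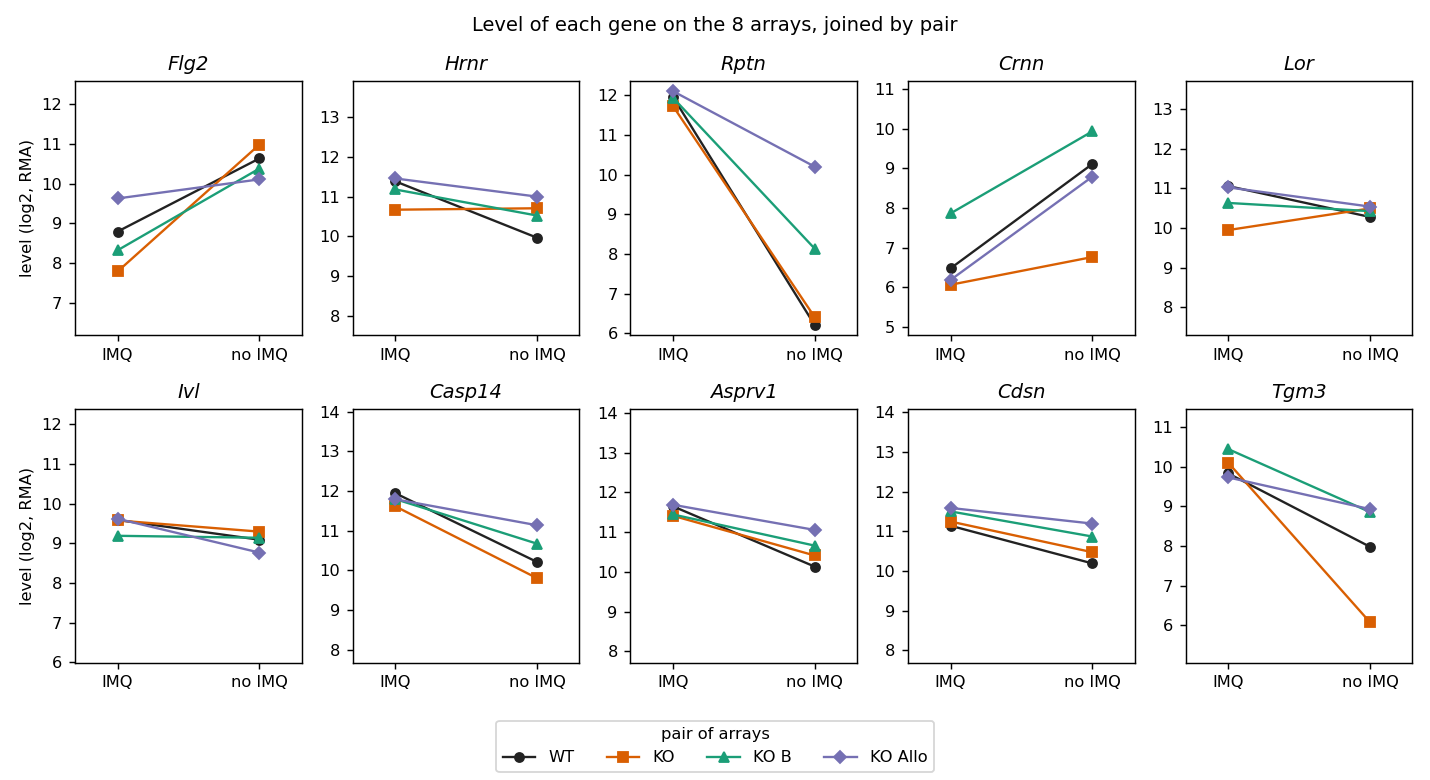
Level of each gene (log2, RMA values, vertical axis) on the 4 arrays with IMQ and the 4 without, with a line joining each pair (WT black circles, KO orange squares, KO B green triangles, KO Allo violet diamonds). Rptn lies between 11.73 and 12.10 on the IMQ arrays and between 6.21 and 10.20 on the others, while Crnn and Flg2 lay lower with IMQ in every pair.

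Among the S100 fused-type genes, repetin (Rptn), which is also a transglutaminase substrate of stratified epithelia, showed the largest difference of the 10. Its level was 11.96 on WT_IMQ, 11.73 on KO_IMQ, 11.94 on KO_IMQ_B and 12.10 on KO_IMQ_Allo, against 6.21 on WT_CTRL, 6.41 on KO_CTRL, 8.14 on KO_CTRL-B and 10.20 on KO_Allo. The IMQ arrays lay within 0.37 log2 units of each other and above every other array, whereas WT_CTRL and KO_CTRL were low and KO_Allo was high among the arrays without IMQ. Rptn rose by 4.19 ± 0.59 log2 units (SE, limma, n = 4 pairs, adjusted p = 0.0250), or 18.3-fold, with 5.74 in the WT pair, 5.32 in KO, 3.80 in KO B and 1.90 in KO Allo.

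Cornulin (Crnn), known in humans as a protein of oral and oesophageal epithelium, went the other way. It read 6.48, 6.07, 7.86 and 6.19 on the WT, KO, KO B and KO Allo arrays with IMQ, against 9.11, 6.76, 9.93 and 8.79 on their partners without IMQ. Each IMQ array was below its partner, but the groups overlapped, since KO_CTRL lay below KO_IMQ_B. Crnn fell by 1.997 ± 0.31 log2 units (SE, limma, n = 4 pairs, adjusted p = 0.0302), or 3.99-fold lower, with differences of -2.63 for WT, -0.70 for KO, -2.06 for KO B and -2.60 for KO Allo. Of 6 other genes listed for oral and other stratified epithelia, Krt36 alone fell, by 1.68 ± 0.31 (limma, adjusted p = 0.0428). Krt4 and Krt13, the keratin pair of those epithelia, averaged 4.42 and 4.94 log2 units with IMQ, against 4.74 and 4.88 without. These averages lay below the array medians.

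Filaggrin-2 (Flg2), a close relative of filaggrin, was lower on all IMQ arrays without passing the test. With IMQ it read 8.79 for WT, 7.79 for KO, 8.32 for KO B and 9.62 for KO Allo, against 10.63, 10.98, 10.38 and 10.10 without. The groups did not overlap. The difference was -1.89 ± 0.38 log2 units (SE, limma, n = 4 pairs, adjusted p = 0.0529), and it ran from -3.19 in the KO pair to -0.48 in the KO Allo pair. Leaving out the KO Allo pair gave -2.36 (limma, adjusted p = 0.00715). Without the WT, KO or KO B pair it was -1.91, -1.46 and -1.84 (limma, adjusted p = 0.210, 0.118 and 0.204).

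Hornerin (Hrnr), another filaggrin relative of the granular layer, read 11.39, 10.67, 11.18 and 11.46 on the WT, KO, KO B and KO Allo arrays with IMQ and 9.97, 10.71, 10.52 and 11 on those without. The groups overlapped, and the KO pair showed -0.04 where the WT pair showed 1.42. Over the pairs the difference was 0.62 ± 0.22 (SE, limma, n = 4 pairs, adjusted p = 0.195). Thus Rptn and Crnn passed in opposite directions and Flg2 and Hrnr passed in neither. Of the 3 other measured S100 fused-type genes, trichohyalin (Tchh), a structural protein of the inner root sheath, fell by 3.64 ± 0.47 (limma, adjusted p = 0.0207). Filaggrin itself (Flg) measured 0.88 ± 0.20 (adjusted p = 0.0655) and Tchhl1 -2.40 ± 0.69 (adjusted p = 0.124).

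Neither envelope precursor passed the test. Loricrin (Lor) read 11.06 for WT, 9.95 for KO, 10.63 for KO B and 11.02 for KO Allo with IMQ, against 10.28, 10.49, 10.43 and 10.54 without. The arrays without IMQ lay close together, and those with IMQ lay on both sides of them, KO_IMQ being the lowest of all 8. The difference was 0.23 ± 0.21 (SE, limma, n = 4 pairs, adjusted p = 0.617; 95% interval -0.26 to 0.73). Involucrin (Ivl) read 9.59, 9.58, 9.19 and 9.62 with IMQ, against 9.09, 9.30, 9.14 and 8.77 without, in the same order of pairs. Its difference was 0.42 ± 0.14 (limma, adjusted p = 0.179; 95% interval 0.08 to 0.76) and had the same sign in 4 of 4 pairs. Of 36 other measured genes of that list, 19 rose and 0 fell, with a median of 1.40, including Sprr2d by 5.41 ± 0.56, Lce3f by 4.31 ± 0.35, Cnfn (cornifelin) by 1.78 ± 0.17 and Krtdap by 0.66 ± 0.11. Near-identical Sprr2 and Lce copies may share probes.

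Both proteases of filaggrin processing rose. Caspase-14 (Casp14), which degrades filaggrin in the cornified layer, read 11.94, 11.61, 11.80 and 11.79 on the WT, KO, KO B and KO Allo arrays with IMQ, against 10.21, 9.80, 10.67 and 11.14 without. It rose by 1.33 ± 0.20 log2 units (SE, limma, n = 4 pairs, adjusted p = 0.0286), or 2.51-fold. The retroviral-like aspartic protease gene Asprv1, whose product cuts the filaggrin precursor in mouse, read 11.65, 11.41, 11.45 and 11.69 with IMQ, against 10.13, 10.41, 10.66 and 11.06 without. It rose by 0.98 ± 0.15 (limma, adjusted p = 0.0300), or 1.98-fold. For both, every IMQ array was above every other array, and the smallest pair difference was that of KO Allo (0.65 and 0.63).

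Of 22 other measured genes listed for filaggrin processing and its control, 9 rose and 1 fell, and their median was 0.57. Those that rose were the kallikrein protease genes Klk6, Klk7, Klk8, Klk13 and Klk14, the cathepsin genes Ctsh and Ctsc, the bleomycin hydrolase gene Blmh and the protease inhibitor gene Spink5. Klk14 rose by 3.303 ± 0.30, Klk13 by 3.24 ± 0.36 and Klk6 by 2.41 ± 0.39. Blmh, whose enzyme completes filaggrin breakdown after caspase-14, rose by 1.11 ± 0.11 (limma, adjusted p = 0.0136). Spink5, which encodes the kallikrein inhibitor LEKTI, rose by 0.65 ± 0.12. Padi3, an enzyme gene of protein citrullination in hair follicle and epidermis, fell by 2.30 ± 0.35 (limma, adjusted p = 0.0294). Histidase (Hal), which turns filaggrin's histidine into urocanic acid, measured 0.11 ± 0.18.

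Tgm3, the gene of a transglutaminase of epidermis and hair, was higher on all IMQ arrays without passing the test. It read 9.83 for WT, 10.10 for KO, 10.44 for KO B and 9.73 for KO Allo with IMQ, against 7.98, 6.08, 8.86 and 8.93 without. KO_CTRL stood lowest, at -1.90 log2 units from WT_CTRL, and the KO pair differed by 4.02, against 1.85, 1.58 and 0.80 in the WT, KO B and KO Allo pairs. The difference was 2.06 ± 0.47 (SE, limma, n = 4 pairs, adjusted p = 0.0700), and 1.41 without the KO pair. Of 7 other transglutaminase family genes, Tgm5 alone rose, by 0.81 ± 0.12 (limma, adjusted p = 0.0252). Tgm1, the main membrane-bound enzyme of the envelope, measured 0.88 ± 0.21 (adjusted p = 0.0824).

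Corneodesmosin (Cdsn) read 11.14, 11.24, 11.50 and 11.59 on the WT, KO, KO B and KO Allo arrays with IMQ, against 10.19, 10.47, 10.87 and 11.19 without. Each IMQ array was above its partner, but KO_Allo was above WT_IMQ, so the groups overlapped. Cdsn rose by 0.69 ± 0.11 log2 units (SE, limma, n = 4 pairs, adjusted p = 0.0353), or 1.61-fold. Of 13 other genes of corneodesmosomes and desmosomes, Dsg1b rose by 1.21 ± 0.15 and Dsc1 by 0.75 ± 0.13, cadherins of the upper epidermis. In that list 0 were called as lower. Dsg1c (-0.73) and Dsg2 (-0.74) were lower on all IMQ arrays without passing the test (limma, adjusted p = 0.0678 and 0.0612). Dsg1a measured -0.08.

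**Figure D2:**
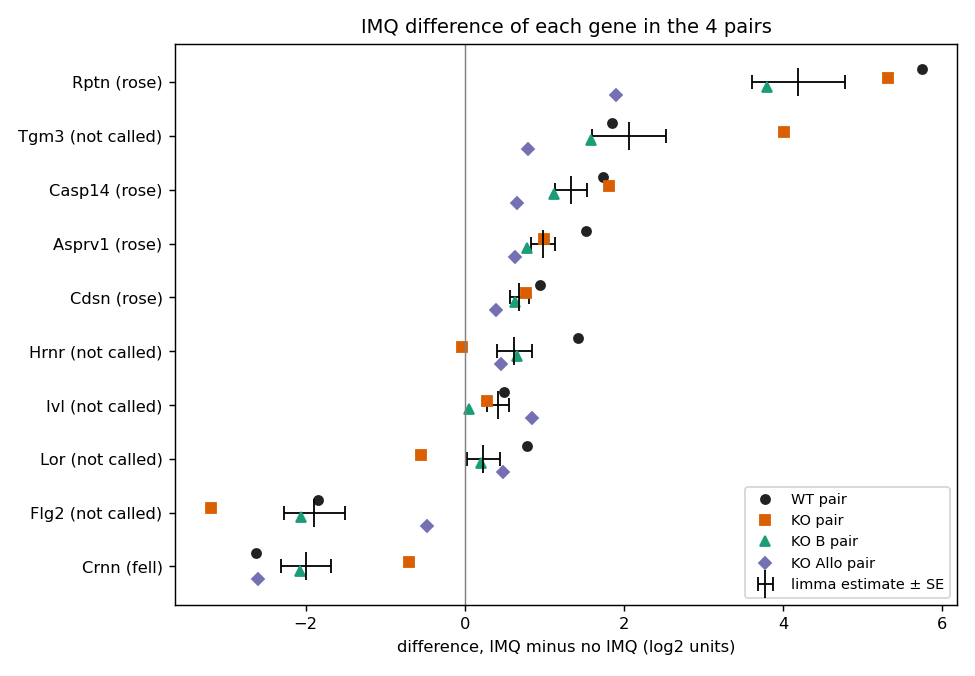
IMQ minus no IMQ (log2 units, horizontal axis) for each gene in each of the 4 pairs (coloured symbols), with the limma estimate over the pairs and its SE (black). The KO Allo pair has the smallest difference for Rptn, Tgm3, Casp14, Asprv1, Cdsn and Flg2, and the KO pair the smallest for Crnn.

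Taking the arrays as groups, all 4 IMQ arrays were higher than all others for 4 of the 10 genes (Rptn, Casp14, Asprv1 and Tgm3), and 5.96% of all genes showed this. For 1 gene (Flg2) all 4 were lower, as for 5.04% of all genes. Within single pairs, which have no replicate check, differences of 1 log2 unit or more were counted. In the WT pair 5 of the 10 genes were higher and 2 lower by that much (4.62% of all genes in either direction), in the KO pair 4 and 1 (4.91%), in the KO B pair 3 and 2 (3.12%) and in the KO Allo pair 1 and 1 (1.71%). Rptn passed this size in all 4 pairs.

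The next question was whether the response to IMQ differed by genotype. In limma 0 of the 10 genes and 0% of all genes differed at an adjusted p under 0.05 (smallest adjusted p 0.983 over all genes). The KO response is here the mean of the 3 KO pairs, that with alloferon included, and the residual spread comes from these pairs. At an unadjusted p under 0.05 stood 2 of the 10 (Hrnr and Asprv1) and 4.12% of all genes. The WT response minus the KO response was 1.06 ± 0.32 log2 units for Hrnr (limma 95% interval 0.25 to 1.87, adjusted p = 0.983) and 0.71 ± 0.24 for Asprv1 (0.10 to 1.32, adjusted p = 0.983). For Rptn it was 2.07 ± 1.22 (-0.98 to 5.12) and for Flg2 0.07 ± 0.98 (-2.38 to 2.52). Without the KO Allo pair the WT minus KO difference was 1.11 ± 0.36 for Hrnr, 0.63 ± 0.25 for Asprv1, 1.19 ± 0.64 for Rptn and 0.78 ± 0.50 for Flg2, with an adjusted p of 0.995 for each in limma. Intervals of this width do not show that the responses are alike.

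Levels were also compared between KO and WT arrays of the same IMQ status, 1 array against 1, with no test. Without IMQ, 2 of the 10 genes were lower by 1 log2 unit or more on KO_CTRL than on WT_CTRL (1.34% of all genes differed so), Crnn by -2.34 and Tgm3 by -1.90. On KO_CTRL-B, by contrast, the same genes lay 0.82 and 0.88 above WT_CTRL, and Rptn alone passed that size, at 1.92 (1.14%). With IMQ, Flg2 and Lor were lower on KO_IMQ than on WT_IMQ, by -1.005 and -1.11 (1.29%). KO_IMQ_B differed from WT_IMQ by that size in Crnn alone, at 1.38 (1.22%), with -0.47 for Flg2 and -0.42 for Lor. No gene of the 10 differed from WT by 1 log2 unit or more in the same direction on both KO arrays of either status.

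For alloferon, KO_IMQ_Allo was set against both other KO arrays with IMQ. Flg2 was higher by 1.84 than on KO_IMQ and by 1.31 than on KO_IMQ_B. Lor was higher by 1.07 and 0.39, and Crnn differed by 0.12 and -1.68. The remaining 7 genes differed by less than 1 log2 unit from either array. In all, 2 of the 10 passed 1 log2 unit against each array, where 1.48% and 1.27% of all genes did. KO_IMQ_B and KO_IMQ, whose labels differ in the letter B alone, themselves differed by 0.53 for Flg2, 0.68 for Lor and 1.80 for Crnn.

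Without IMQ, Rptn was higher on KO_Allo (10.20) than on the other 3 arrays (6.21 to 8.14). KO_Allo was above KO_CTRL by 3.79 for Rptn, 2.85 for Tgm3, 2.02 for Crnn and 1.33 for Casp14 (4 of the 10, against 3.15% of all genes). Against KO_CTRL-B it was higher by 2.06 for Rptn and differed by -1.14 for Crnn (1.24% of all genes passed 1 log2 unit). Casp14 and Tgm3 were only 0.46 and 0.07 above KO_CTRL-B. KO_Allo was the highest of the 4 arrays without IMQ for 7 of the 10 genes (27.3% of all genes), namely Hrnr, Rptn, Lor, Casp14, Asprv1, Cdsn and Tgm3. WT_CTRL was the lowest for 5 (25.4%). KO_Allo also ranked at an end in lists of other genes. Among the 4 arrays without IMQ, its medians were highest for envelope precursors (7.11, against 5.70 to 6.25) and, narrowly, neutrophil genes (5.42, against 5.13 to 5.32). Its median for granular and spinous keratinocytes (9.36) was the lowest. Genes of that list differed, however. Krt77 was lowest there (8.60, against 11.47 to 12.43), Krt1 (12.83) and Krt10 (12.91) were highest, and Krt2 (4.81) lay in between. With IMQ the levels of most of the 10 lay closer together: the SD over the 4 IMQ arrays was smaller than over the 4 others for 8 of the 10 genes, against 53.7% of all genes. For Rptn it was 0.15 with IMQ and 1.85 without, but for Ivl (0.20 and 0.22) and Hrnr (0.36 and 0.44) it differed little. For Flg2 it was larger with IMQ, at 0.78 against 0.37 without, as for Lor, at 0.52 against 0.11.

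The IMQ response of the KO Allo pair was the smallest in size for 6 of the 10 genes, and for 31.9% of all genes. Set against the mean of the KO and KO B pairs it differed by -2.66 ± 0.64 log2 units for Rptn, by 2.14 ± 0.50 for Flg2 and by 0.69 ± 0.26 for Ivl (SE, limma). These 3 of the 10 had an unadjusted p under 0.05, as had 6.64% of all genes. In limma 0 of the 10 and 0% of all genes passed at an adjusted p under 0.05 (smallest 0.247 over all genes). The adjusted p was 0.534 for Rptn, 0.524 for Flg2 and 0.745 for Ivl. The alloferon arm is 1 pair and its own spread was not measured: the SE rests on the difference between the KO and KO B pairs, at 1 residual degree of freedom, and on the variance shared over genes.

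Along chromosome 3, the 6 genes of the epidermal differentiation complex lie in separate blocks of the RefSeq order. Crnn, Flg2, Flg, Hrnr, Rptn, Tchh and Tchhl1 follow each other among the measured genes, and their IMQ differences were -1.997, -1.89, 0.88, 0.62, 4.19, -3.64 and -2.40. Rptn, with the highest difference of this block, thus sits beside Tchh, with the lowest. Lor stands alone between Pglyrp3, which rose by 1.75, and Prr9, which fell by 2.74. Ivl stands between Sprr4 (-0.61) and Smcp (-0.22), neither called. Of 58 other measured genes from S100a1 to S100a10, 23 rose and 3 fell, with a median of 0.63.

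**Figure D3:**
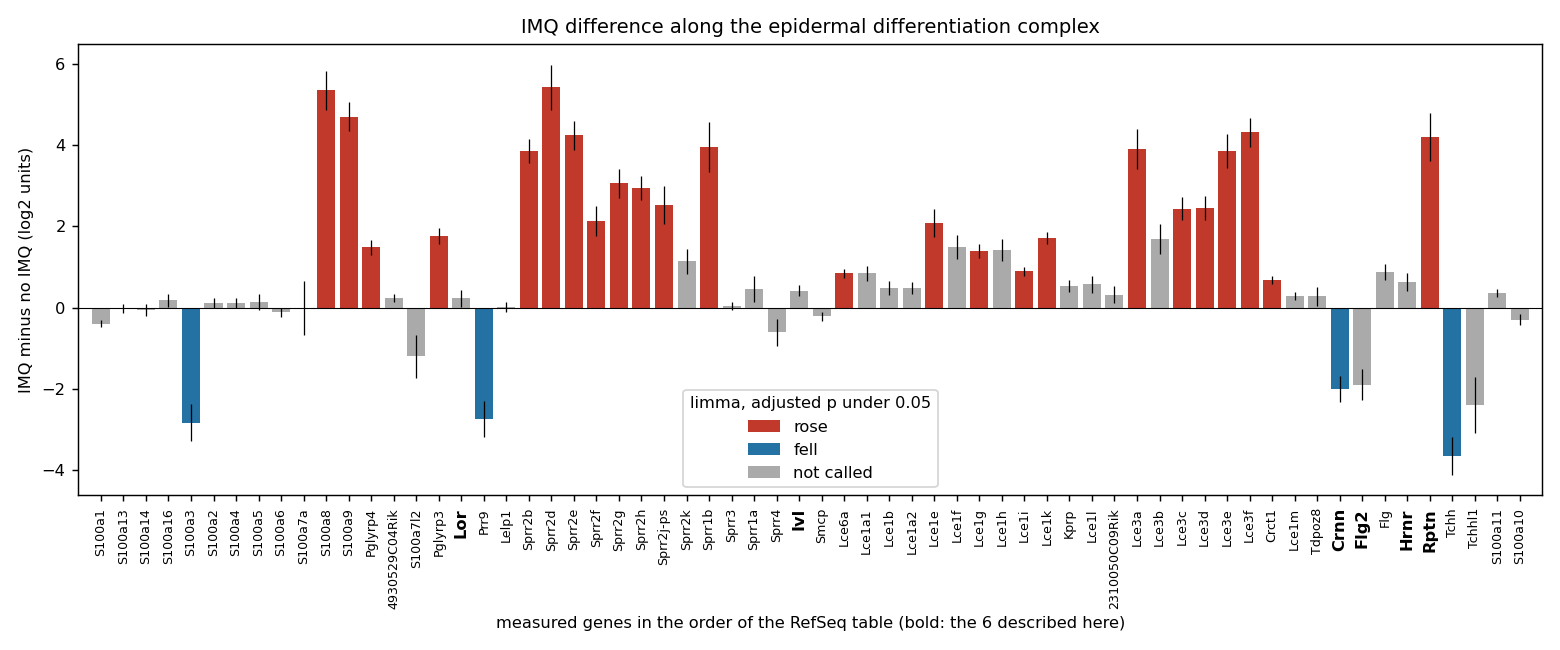
IMQ minus no IMQ over the 4 pairs (log2 units, bars, with limma SE) for the 64 measured genes from S100a1 to S100a10 in RefSeq order, red for genes that rose, blue for those that fell and grey for those not called. The S100 fused-type block at the right holds Rptn at 4.19 next to Tchh at -3.64.

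Other structures of the skin varied between the arrays, and in bulk tissue fewer cells of a type and less RNA per cell cannot be told apart. Of 24 measured genes of inner root sheath and hair follicle, 18 fell and 0 rose, with a median difference of -2.29. Tchh is on that list as well. The median level of that list was 6.27 for WT, 5.72 for KO, 7.62 for KO B and 6.62 for KO Allo with IMQ, against 9.21, 6.88, 9.34 and 8.73 without. KO_CTRL was thus lower than KO_IMQ_B. Crnn ranked the 8 arrays in the same order, except that WT_IMQ and KO_IMQ_Allo changed places. The 3 genes whose pattern over the 8 arrays was most like that of Crnn were Prr9, Krt33a and Calhm4 (Pearson r = 0.995, 0.992 and 0.992), of which Krt33a encodes a hair keratin. Fitted with the hair follicle median as a covariate, the IMQ difference of Crnn was 0.04 ± 0.63 log2 units. That median was itself lower with IMQ in every pair, so the fit cannot separate it from IMQ. The fit called 0 of all 22180 genes, at 2 residual degrees of freedom. The cause of the fall of Crnn was not tested.

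**Figure D4:**
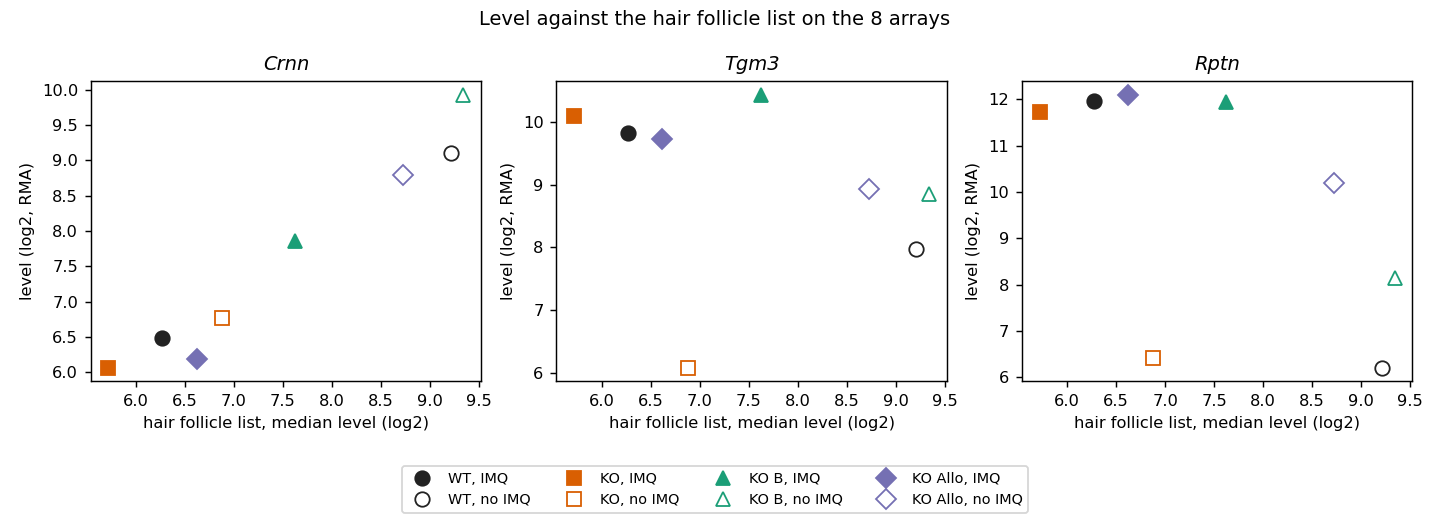
Levels of Crnn, Tgm3 and Rptn (log2, vertical axes) against the median level of the hair follicle list (log2, horizontal axes) on the 8 arrays, filled symbols with IMQ and open symbols without. Crnn is higher where the list is higher, apart from WT_IMQ and KO_IMQ_Allo, whereas Tgm3 and Rptn are low on KO_CTRL, where the list stands at 6.88.

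On the single array KO_CTRL the hair follicle median was 6.88, within the range of the IMQ arrays. There Rptn read 6.41 and Tgm3 6.08, below all IMQ arrays. With the hair follicle covariate Rptn measured 3.74 ± 2.09, Casp14 1.38 ± 0.71, Cdsn 0.50 ± 0.39 and Asprv1 0.39 ± 0.47. In the same fit Tgm3 measured 4.24 ± 1.35 and Flg2 -3.47 ± 1.16. Of 15 skeletal muscle genes, 3 fell (Actn3, Myh1 and Mb). The median level of that list lay between 7.84 and 8.85 with IMQ, against 8.40 to 10.97 without, so the groups overlapped, and it was highest on KO_CTRL and WT_CTRL. Within every pair, however, this muscle median was lower with IMQ, so a fit with it cannot separate it from IMQ either. With it as a covariate Rptn measured 2.02 ± 0.70, Casp14 0.58 ± 0.23, Asprv1 0.64 ± 0.28, Cdsn 0.43 ± 0.21, Flg2 -0.52 ± 0.48 and Tgm3 0.16 ± 0.42. Neither covariate fit called any gene among 22180, at 2 residual degrees of freedom. Of 11 neutrophil genes, 4 rose (S100a8, S100a9, Cxcr2 and Fpr2, the S100 genes being also expressed by keratinocytes), with list medians of 5.46 to 6.63 with IMQ, against 5.13 to 5.42 without. Of 8 sebaceous gland genes, 3 fell (Mc5r, Awat2 and Fads2), with medians of 7.21 to 8.52 with IMQ, against 8.47 to 8.75 without. The part of these cells in the results was not tested.

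Of 6 measured genes of granular and spinous keratinocytes, 0 were called in limma. Their differences ran in both directions, with a median of 0.05 log2 units. Krt10 measured 0.07 ± 0.12, Krt1 0.91 ± 0.20 and Krt78 0.94 ± 0.25. Krt77, a suprabasal keratin, measured -4.28 ± 0.88 (limma, adjusted p = 0.0566). It read 6.32, 6.36, 6.55 and 8.21 on the WT, KO, KO B and KO Allo arrays with IMQ, against 12.04, 12.43, 11.47 and 8.60 without. Like Flg2, Krt77 was thus lower on every IMQ array and lowest, among arrays without IMQ, on KO_Allo.

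Likeness over the 8 arrays, given as a description of arrays that share their IMQ status, placed the genes in different company. Rptn was most like Glrx, Kctd4 and Ctsa (r = 0.995, 0.994 and 0.992), and Casp14 most like Kctd4, Map3k9 and Lce1e (0.994, 0.985 and 0.980). Asprv1 was most like Nccrp1, Calm4 and Il1f5 (0.993, 0.992 and 0.992), the last the IL-36 receptor antagonist. For Cdsn the closest were Frmpd1, Qsox1 and Lypd5 (0.986, 0.985 and 0.985), and for Tgm3 they were Tcf25, Blvrb and Otub2 (0.995, 0.994 and 0.989). Flg2 was closest to Calm5, Pcm1 and Skint10 (0.989, 0.979 and 0.978), and Hrnr to Ly6h, Prokr2 and Il18 (0.981, 0.978 and 0.964). Lor and Ivl had no gene above 0.97, with 0.934 for Olfr1133 and 0.962 for Crybb2 as their closest. Among the 10 themselves, Rptn correlated at 0.98 with Casp14 and Asprv1 and at -0.84 with Flg2.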

How the data were processed

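Total RNA of dorsal skin was hybridised to Affymetrix arrays. The deposited log2 expression values were made by the authors by RMA (robust multi-array averaging) with Affymetrix Power Tools, per the labels. The submitters' processing notes also name R 3.3.2, without a role, and no genome build. RMA puts all arrays on a common distribution, compresses differences of dim genes and removes a change shared by most genes. The number of arrays limits the precision. Of 41345 probe sets, 23521 carry 1 gene symbol, 1814 several and 16010 none in the platform annotation. Where a gene had several probe sets, that of highest mean stood for it, giving 22180 genes without a filter on dim genes.

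Tests used limma 3.58.1 in R 4.3.3 (lmFit, eBayes) with Benjamini-Hochberg adjustment over all genes. The fits were tested on simulated data, in which the IMQ fit called most of the changes put in and the genotype and alloferon fits called none. A lack of calls in the genotype and alloferon fits thus says little. Simulated noise was drawn independently for each gene and array, so variation shared between genes within a pair, as from tissue content, was left out. How well the IMQ fit performs under such variation was not tested. The IMQ fit had a level per pair and 1 IMQ effect (3 residual degrees of freedom). Its residual thus includes any differences in IMQ response by genotype, alloferon or the letter B. The genotype and alloferon fits had separate IMQ effects (2 and 1). Labels set the pairs, and no separate evidence for shared animals was used. Gene lists are described by counts and medians. The 10 genes and the lists were chosen with earlier results of these data known. Named are the 10, the called genes of each list (examples of the envelope precursors, and counts for the hair follicle list), the largest differences where none was called and the 3 genes most like each by Pearson r, without clone-type symbols. Values named outside this rule (Flg, Tchhl1, Hal, Tgm1, Dsg1a, Dsg1c, Dsg2, Krt1, Krt10, Krt2, Krt77, Krt4, Krt13 and neighbours of the 6 genes on chromosome 3) were chosen after they were seen. Promoter sequences are from RefSeq (GRCm38.p6), and all 10 genes matched. Protein sequences were not used here.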

Additional observations from a re-analysis of the deposited data

Results flagged for a closer look

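Among 30 sets of 4 values examined (the pair differences, the levels with IMQ and the levels without IMQ of each of the 10 genes), 1 held a value that stood apart from the other 3 by Dixon's criterion at the 95% level. The Ivl level on KO_IMQ_B was 9.19 log2 units, where the other IMQ arrays read 9.58 to 9.62. Chance alone gives about 1 such set in 20.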

How the results depend on the processing

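The count of called genes for IMQ, 5 of 10, was 3 with a trended robust prior (Casp14, Asprv1 and Cdsn) and 0 with every probe set fitted on its own, with the hair follicle covariate and with the skeletal muscle covariate. Over all genes 685 were called, against 806 with the trended robust prior and 0 in each of these last 3 fits. Leaving out 1 pair gave 0 to 7 of the 10, and 0 to 1307 of all genes. Without the replicate block, that is with no level per pair, 4 of the 10 were called (Flg2, Rptn, Casp14 and Asprv1), and 747 of all genes. The count was 4 to 6 with the other alternatives (dim genes removed, arrays centred or quantile-normalized again, the mean of a gene's probe sets, B read as a second array). These fits called 454 (B read as a second array) to 1028 (dim genes removed) genes in all. With the hair follicle covariate the difference turned sign for Hrnr (-0.88), Lor (-1.18) and Crnn (0.0413); the cause was not tested. Rptn kept its sign in all 14 alternatives, between 2.02 and 4.95 log2 units. The differences between genotypes and for alloferon called 0 of the 10 genes in each alternative run. The number of arrays limits all of these.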
